A study of Homo sapiens with 18 samples.

Results

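The peaks described here are all QKI eCLIP peaks on the mitochondrial chromosome, on either strand. They were 1588 of the 889743 peaks deposited in 12 lists, of which 1381 lay in the 9 lists of single libraries and 207 in the 3 merged lists of reproducible peaks, 1 list per day. They were chosen by chromosome alone, with no measured value. QKI was profiled in HUES6, a human embryonic stem cell line, by eCLIP, in which ultraviolet light links a protein to the RNA it touches, an antibody then pulls the protein down (IP), and the RNA bound to it is sequenced beside an input library. The groups were day 0 (pluripotent cells, with no differentiation agents), day 4 (cardiac progenitors) and day 8 (cardiomyocytes, taken once beating was seen). Differentiation used 1.5 uM CHIR and 1.5 ng/mL BMP4, then 100 nM C59. All groups were the same line with no genetic change stated, and each day had 3 IP libraries and 3 inputs. The inputs entered only through the authors' folds.

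Human mitochondrial DNA is a small circle that encodes 37 genes, namely 2 ribosomal RNAs, 22 transfer RNAs and 13 mRNAs for subunits of the respiratory chain and ATP synthase. Both strands are transcribed into long precursors, and tRNAs that lie between the other genes are cut out to release them. QKI is a STAR-family RNA-binding protein known mainly for regulating splicing and stability of nuclear transcripts. Mitochondrial transcripts have no introns. The nuclear genome holds copies of mitochondrial sequence, and how reads matching both were assigned is not given in the sources used here, so the assignment of these peaks to the mitochondrial copy is the authors'.

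In a typical library, mitochondrial binding clusters lay in short stretches of the transcripts and on the coding strand, and many returned to the same stretches. Whether the peak caller searched the other strand is not given in the sources used here. Clusters that touch or overlap over the 9 libraries were merged into 72 regions, numbered along each transcript (ND5-4 is the fourth on ND5). A cluster passed when the authors' fold of IP over input was at least 4 (log2 of at least 2) at p of at most 0.001 (−log10 p of at least 3). Of the 72 regions, 34 had a passing peak in at least 1 library and 12 in 9 of 9. The strongest lay inside COX2 and ND5. Clusters on the rRNAs were numerous but rarely passed, and 13 of 14 merged regions on tRNAs ended close to the tRNA 3′ end.

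The coordinates are those of hg19, and 2 mitochondrial references circulate under that name, so the reference was checked before genes were named. The peaks ran from position 617 to position 15989, short of the end of either reference, so the extent did not tell them apart. Gene borders came from a RefSeq table of another build, and they were moved against the peaks in steps of 1 nucleotide (nt). All 1588 peaks lay wholly inside 1 annotated transcript on its coding strand for moves from -2 to 1 nt, whereas 4 crossed a border at 2 nt and 32 at -4 nt. When the borders were moved as in the older reference (2 nt up to the start of RNR2 and 1 nt after it), 1588 of 1588 again lay inside 1 transcript, the same one for each. All 72 regions kept their gene for moves of 0, 1 and 2 nt. Gene names therefore hold under either reference, and distances to gene ends are given as ranges over these moves. No peak lay antisense to a gene or in the control region. Whether the peak caller searched outside annotated transcripts is not given in the sources used here.

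The library lists held 52462 to 187962 clusters over all chromosomes, of which 104 to 195 were mitochondrial. Read depth is unknown, since the files hold peaks and no reads. No mitochondrial cluster had the same borders and values in 2 libraries. Separate cultures for the 3 replicates of each day are not stated in the labels, so p-values measure the spread between libraries, which may be technical. The library of day 8 replicate 2 stood apart, with 104 mitochondrial clusters, 31 passing peaks and a highest mitochondrial log2 fold of 4.80 against 5.59 to 7.15 in the other 8 libraries.

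The mitochondrial mRNAs carried the most passing peaks in each library and the highest folds, although rRNAs held more clusters than mRNAs in 3 libraries. All 13 had at least 1 region, 12 had a passing peak, and 6 had a region that passed in 9 of 9 libraries. The mRNA without a passing peak was ND1, a subunit of respiratory complex I, where 5 regions reached at most a log2 fold of 1.83. Of the 12 with a passing peak, ND2 passed in 7 libraries, COX1 in 3, ND4L in 2, and ATP8 and ND6 in 1 each. Among mRNAs of complex I, the NADH dehydrogenase that takes electrons from NADH, 6 of 7 had a passing peak and 3 (ND3, ND4 and ND5) had a region passing in 9 libraries. Both COX2 and COX3 of the 3 complex IV (cytochrome c oxidase) mRNAs did so, as did ATP6, 1 of 2 ATP synthase mRNAs. CYTB, the only complex III subunit encoded there, passed in 8 of 9 libraries at region CYTB-1, and the library below the threshold was day 8 replicate 2 with a log2 fold of 1.74.

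Region COX2-1 (chrM:7678-7760, plus strand, 83 nt) lies in COX2, which encodes the cytochrome c oxidase subunit that receives electrons from cytochrome c. Its highest log2 fold was 6.38, 6.09 and 5.73 in replicates 1 to 3 of day 0, 5.59, 6.65 and 5.65 at day 4, and 6.58, 4.45 and 6.87 at day 8. The days overlapped, and the lowest value was again that of day 8 replicate 2. The region starts 90 to 92 nt into the transcript. Among clusters of the same library with −log10 p of at least 3, COX2-1 outranked a median of 94.2% (range over the 9 libraries 65.9% to 97.9%).

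Region ND5-4 (chrM:13609-13824, plus strand, 216 nt) lies in ND5, which encodes a proton-pumping subunit of complex I. Its highest log2 fold was 6.67, 6.27 and 5.78 at day 0, 5.09, 6.69 and 5.29 at day 4, and 5.55, 4.80 and 7.15 at day 8. The values of the 3 days overlapped. The centre of the strongest cluster moved by no more than 26 nt between libraries, from 13656.5 to 13682.5, although the region is 216 nt wide. In COX2-1 that centre ranged over 50.5 nt of 83. ND5-4 held 16, 8 and 12 reproducible peaks at days 0, 4 and 8, the most of any mitochondrial region at each day.

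The other mRNA regions passing in all 9 libraries were ATP6-1 (chrM:8619-8738, median log2 fold 4.70), ND4-3 (chrM:11832-11919, 4.76), ND5-2 (chrM:12686-12760, 4.60), COX3-1 (chrM:9275-9382, 4.58), ND4-1 (chrM:10892-11017, 4.47), ND5-1 (chrM:12339-12422, 3.95) and ND3-1 (chrM:10070-10145, 3.49). ATP6-1 ranged most widely. It had log2 folds of 5.06, 4.38 and 3.79 at day 0, 4.63, 5.35 and 4.70 at day 4, and 4.93, 2.18 and 5.86 at day 8. Its value in day 8 replicate 2 was just past the threshold. As merged over the 9 libraries, ND5-1 began 0 to 2 nt from the first base of its transcript, and CYTB-1 within 1 nt of its own on either side. These starts lie at annotated borders, which no peak crossed for moves from -2 to 1 nt. Whether the peak caller stopped at such borders was not tested. In single libraries the start varied. The only ND5-1 cluster began at 12355 in day 4 replicates 2 and 3, and at 12340 in day 8 replicate 1. Of the 21 mRNA regions with a passing peak, 15 were centred in the first 50% of the transcript and 11 in its first 25%, and of all 41 mRNA regions 22 were in the first 50% and 14 in the first 25%.

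**Figure D1:**
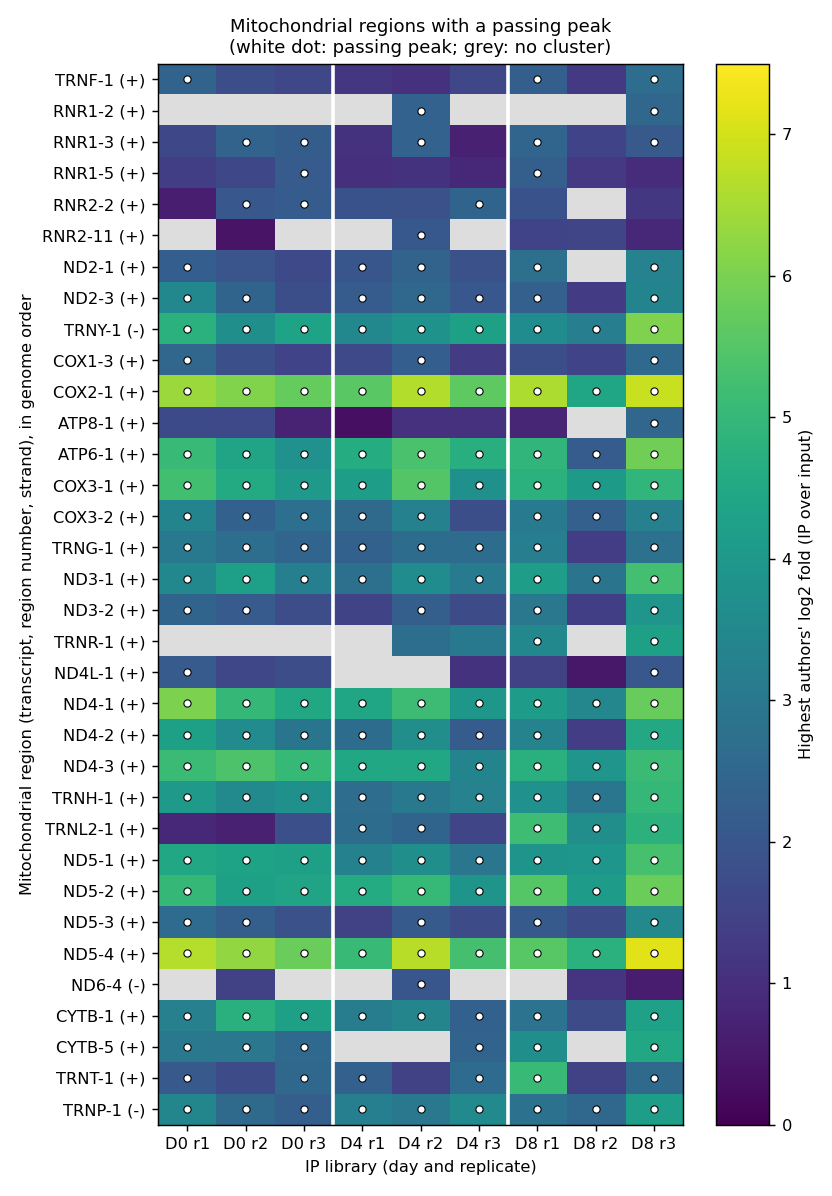
Highest authors' log2 fold of IP over input (colour) in each of the 34 mitochondrial regions with a passing peak (rows, in genome order, with strand) and each of the 9 IP libraries (columns, by day and replicate). White dots mark passing peaks and grey marks no cluster; 12 rows have dots in all 9 columns, COX2-1 and ND5-4 are the brightest, and TRNL2-1 is dark at day 0 and bright at day 8.

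Recurrence was set against all chromosomes, treated the same way. A cluster was present in 9 of 9 libraries in 32 of 72 mitochondrial regions (44.4%), against 0.375% of all 550661 regions. Clusters over at least 50% of the region were present in 9 of 9 in 26 of the 72, a share not computed over all regions. The strongest cluster can shift within a region. Its centre ranged over 226 nt of 306 in COX1-3 and over 26 nt of 216 in ND5-4. A passing peak was present in 9 of 9 in 12 of 72 (16.7%), against 0.0986% of all regions. Among regions with a cluster in every library the shares were closer, 12 of 32 (37.5%) on the mitochondrial genome and 26.3% of 2065 overall. At an 8-fold threshold, 7 mitochondrial regions passed in 9 of 9, namely TRNY-1, COX2-1, COX3-1, ND4-1, ND4-3, ND5-2 and ND5-4. At the other end, 11 of 72 regions had a cluster in a single library.

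The 2 rRNAs of the mitochondrial ribosome, RNR1 (12S) and RNR2 (16S), held many clusters of low fold. They had 59.1 ± 14.5 clusters per library (SD, n = 9), but 2.44 ± 1.94 of these passed. Of 17 rRNA regions, 5 passed in any library, none in 9 of 9, and the highest log2 fold was 2.48. RNR1-3 (chrM:888-1049), which passed most often, had log2 folds of 1.63, 2.38 and 2.21 at day 0, 1.11, 2.36 and 0.70 at day 4, and 2.44, 1.5 and 2.10 at day 8. It passed in 5 libraries, spread over the 3 days. Among regions present in every library, 8 of the 9 lowest-fold clusters named, 3 per day, lay in RNR1-1 or RNR1-3, and the 9 highest lay in ND5-4 or COX2-1.

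The share of clusters that passed differed between the classes of transcript within each library. On rRNAs it was 0 in 3 libraries (day 0 replicate 1, day 4 replicate 1 and day 8 replicate 2) and at most 6.90%. On tRNAs it was 31.6% to 76.2% and on mRNAs 45.1% to 80.0%. No rRNA value reached the lowest tRNA or mRNA value. The mRNA share exceeded the rRNA share by 62.5 ± 10.6 percentage points (SD, higher in 9 of 9 libraries; exact sign-flip permutation test, two-sided p = 0.00391, the smallest that 9 libraries allow; adjusted over 7 tests 0.00547). The tRNA share exceeded the rRNA share by 52.1 ± 15.9 points (9 of 9; exact permutation p = 0.00391, adjusted 0.00547). tRNAs and mRNAs differed by -10.4 ± 15.9 points, with tRNAs higher in 3 of 9 libraries, which did not pass the exact permutation test (p = 0.0977, adjusted 0.0977). Clusters of 1 transcript share its RNA and are not independent, so the libraries were the replicates. With touching clusters merged, the ranges overlapped, since the rRNA share reached 33.3% and the lowest tRNA share was 30.8%. The rRNA share was still the lowest within each library.

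**Figure D2:**
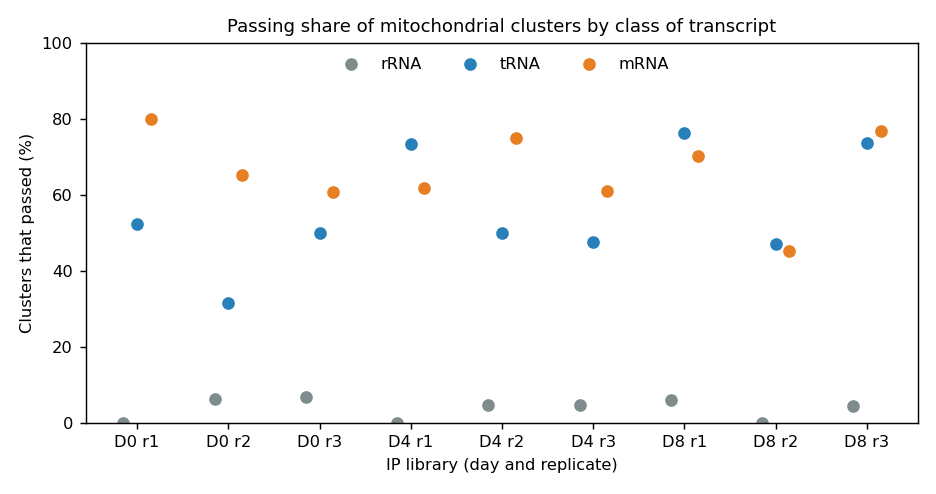
Percentage of mitochondrial clusters that passed 4-fold and p 0.001 (vertical axis) in each of the 9 IP libraries (horizontal axis), 1 point per class of transcript. The rRNA points lie between 0 and 6.90% and the tRNA and mRNA points between 31.6% and 80.0% in every library.

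On the tRNAs, regions of 26 to 51 nt reached close to the 3′ end, and the longer ones, such as TRNS2-1 and TRNL2-1, also covered much of the molecule. A region was found on 14 of the 22 tRNAs, none on TRNQ, TRNW, TRNA, TRNN, TRNC, TRNS1, TRND or TRNK. Of the 14, 13 were centred past the midpoint of the tRNA, towards its 3′ end, and ended 2 to 8 nt before its annotated 3′ end. That end is where the CCA tail, not encoded in mitochondrial DNA, is added and the amino acid is attached. Among regions, the exception was TRNR-1 (arginine), which ended 22 to 24 nt before the end and had a cluster in 4 libraries. Regions are merged over the 9 libraries, and clusters of 1 library can stop earlier. TRNS2-1 ends at 12261, but its strongest cluster ended at 12244 (day 4 replicate 2) to 12254 (day 4 replicate 3). TRNL2-1 ends at 12333, but its only cluster ended at 12316 and 12304 in day 0 replicates 1 and 2. By contrast, TRNY-1 and TRNH-1 were covered over their full 29 and 34 nt in each library. A passing peak was found on 8 tRNAs, and 3 passed in 9 of 9 libraries.

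TRNY-1 (chrM:5831-5859, minus strand, 29 nt) lies in the tyrosine tRNA. Its log2 folds were 4.78, 3.74 and 4.35 at day 0, 3.51, 3.86 and 4.26 at day 4, and 3.66, 3.21 and 6.06 at day 8. TRNH-1 (chrM:12171-12204, plus strand), in the histidine tRNA, had 4.06, 3.59 and 3.77, then 2.67, 3.02 and 3.32, then 3.78, 2.95 and 5.0. Day 4 lay below day 0 there, and day 8 overlapped both. Day 4 also lay below day 0 in ND5-1 (4.5, 4.34 and 4.25, then 3.29, 3.73 and 2.95). The same held in ND4-3 (5.11, 5.41 and 5.02, then 4.48, 4.46 and 3.39). TRNH-1, ND5-1 and ND4-3 were picked out by their values from the 12 regions passing in 9 libraries, so no test is given. In the rest of the 12, days 0 and 4 overlapped. TRNP-1 (chrM:15960-15989, minus strand), in the proline tRNA, had 3.43, 2.58 and 2.28, then 3.24, 3.0 and 3.56, then 2.83, 2.5 and 4.17. For TRNY-1 and TRNP-1 all days overlapped. The other tRNA regions with a passing peak, beside TRNL2, were TRNG-1 in 8 libraries, TRNT-1 in 6, TRNF-1 in 3 and TRNR-1 in 2.

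**Figure D3:**
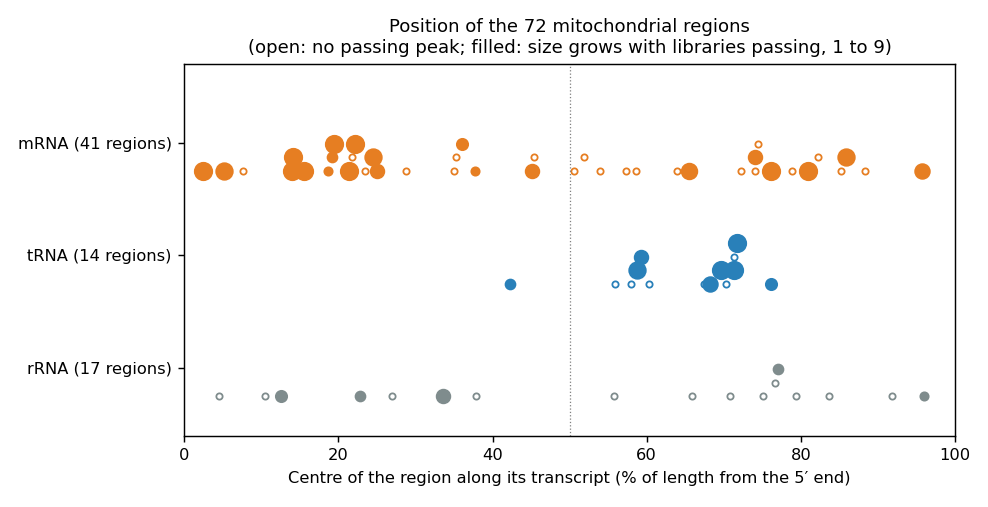
Centre of each of the 72 regions as a percentage of transcript length from the 5′ end (horizontal axis), by class of transcript; open points had no passing peak and filled points grow with the number of libraries that passed. The tRNA regions sit to the right of the midline except TRNR-1, while mRNA regions lie along the whole length.

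The region on the leucine tRNA TRNL2 (TRNL2-1, chrM:12283-12333, plus strand, 51 nt) passed in 0 of 3 libraries at day 0, 2 of 3 at day 4 and 3 of 3 at day 8. Its log2 folds were 0.86, 0.70 and 1.84 at day 0, 2.65, 2.42 and 1.57 at day 4, and 5.17, 3.71 and 4.81 at day 8. The day 8 values lay above all others, and the mean was 1.14 ± 0.62, 2.21 ± 0.57 and 4.56 ± 0.76 (SD, n = 3). The −log10 p of its strongest cluster was 1.02, 0.609 and 5.52 at day 0 and 73.8, 30.3 and 35.9 at day 8. It was among the merged reproducible peaks at day 8 only, with 2 peaks. TRNL2-1 was the single one of 72 mitochondrial regions that passed in 3 of 3 libraries of one day and 0 of 3 of another. It was singled out from the 72 by its values, so no test is given. The libraries came from bulk cultures, so fewer cells with the bound RNA and less bound RNA per cell cannot be told apart. The same pattern, day 8 without day 0, was found in 0.0895% of all 550661 regions. TRNL2-1 had a cluster in 9 of 9 libraries, as did 0.375% of all regions. Shares of such patterns among those regions were not computed, so the shares over all regions are not a like background. No mitochondrial region showed the other 5 patterns, whose shares over all regions were 0.484% and 0.503% (day 0 without day 4, and without day 8), 0.014% and 0.0104% (day 4 without day 0, and without day 8) and 0.0952% (day 8 without day 4).

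The tRNA genes for histidine, serine (TRNS2) and leucine (TRNL2) follow each other directly before ND5. TRNS2-1 (chrM:12219-12261), between the other two, had a cluster in all 9 libraries and passed in none. Its log2 folds were 0.59, 1.26 and 0.69 at day 0, 0.43, 0.14 and 0.69 at day 4, and 0.52, 0.17 and 1.79 at day 8. ND5-1, on the far side, passed in 9 libraries at 2.95 to 5.33. The valine tRNA region TRNV-1 (chrM:1617-1667) had clusters in 3 of 3 libraries at day 0, 2 of 3 at day 4 and 0 of 3 at day 8, with a highest log2 fold of 0.72, so none passed. TRNV was singled out after its values were seen.

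**Figure D4:**
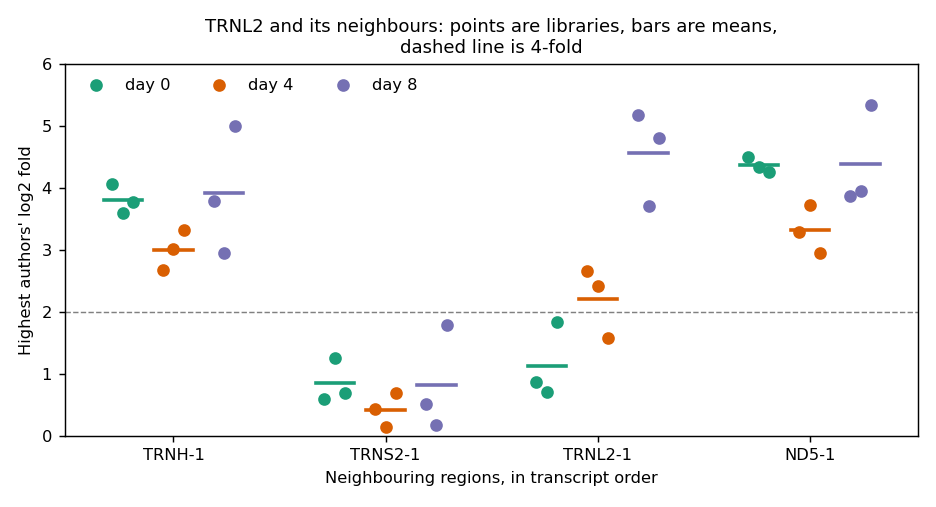
Highest authors' log2 fold (vertical axis) in 4 neighbouring regions in transcript order, with 1 point per IP library, a bar at the mean of each day (n = 3) and a dashed line at 4-fold. TRNL2-1 runs from 0.70 to 1.84 at day 0 and from 3.71 to 5.17 at day 8, whereas TRNS2-1 stays below the line at all days.

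Transcripts of the plus strand, as the reference is written, held nearly all clusters. The plus strand held 65 of the 72 regions and 95.1% to 97.6% of the clusters of each library. It also carries the 2 rRNAs and every mRNA but ND6. The share of annotated length on it was not computed, so no excess over that share is shown. The 7 regions on the minus strand lay on ND6, a complex I subunit and the single mRNA read from that strand (4 regions), and on TRNY, TRNE and TRNP. ND6 had a passing peak in 1 library, at a log2 fold of 2.02. TRNY-1 and TRNP-1 were 2 of the 12 regions passing in all libraries. No difference in the plus-strand share between days passed the test (96.6 ± 1.18%, 96.0 ± 0.78% and 96.6 ± 0.478%; exact permutation test of F over 280 partitions, p = 0.646).

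In every library, mitochondrial clusters passed more often than clusters elsewhere. In replicates 1 to 3, 54.4%, 42.6% and 40.2% passed at day 0, 38.5%, 39.1% and 34.0% at day 4, and 39.3%, 29.8% and 48.6% at day 8. Over all chromosomes the share was 15.2%, 7.06% and 6.95% at day 0, 4.79%, 11.1% and 4.02% at day 4, and 12%, 6.09% and 17.4% at day 8. The difference from the other chromosomes was 31.4 ± 4.7 percentage points (9 of 9 libraries; exact sign-flip permutation p = 0.00391, adjusted 0.00547).

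The direction turned among clusters with −log10 p of at least 3. There, 34.4% to 56.1% of mitochondrial clusters passed against 78.1% to 98.1% of the others, a difference of -46.7 ± 7.24 points (0 of 9 libraries higher; exact permutation p = 0.00391, adjusted 0.00547). That p-value was reached by 85.5% to 98.3% of mitochondrial clusters and 4.81% to 17.7% of the others. Among clusters with that p-value, the mitochondrial median log2 fold was lower by 2.20 ± 0.408 than elsewhere (difference -2.2; 0 of 9 higher; exact permutation p = 0.00391). A p-value depends in part on the fold, so this condition itself selects on fold, and it removed most clusters of the other chromosomes. Neither difference under this condition can be told apart from that selection. Over all clusters the difference of medians was -0.347 ± 0.505 and did not pass (2 of 9 higher; exact permutation p = 0.082, adjusted 0.0957). Clusters were also narrower, with medians of 10 to 20 nt against 39 to 44 nt elsewhere, and more divided, with 2.21 to 3.84 touching or overlapping clusters per footprint against 1.01 to 1.04. The part of width, division and p-value in the higher passing share was not tested, beyond the values in the closing section.

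**Figure D5:**
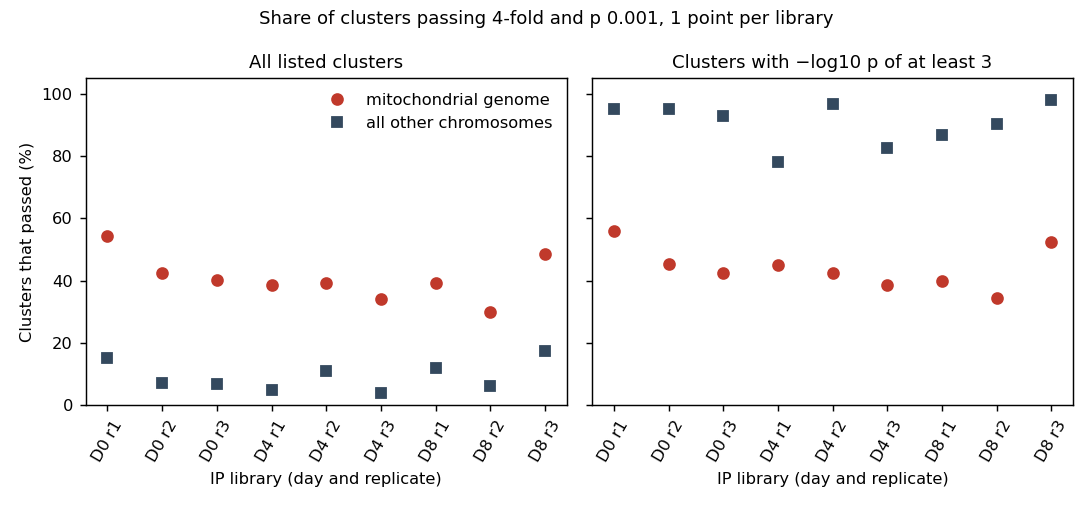
Percentage of clusters that passed 4-fold and p 0.001 (vertical axis) in each IP library (horizontal axis), for the mitochondrial genome (circles) and all other chromosomes (squares), among all clusters (left) and among those with −log10 p of at least 3 (right). Circles lie above squares in all 9 libraries on the left and below them in all 9 on the right.

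No difference between days in the number of mitochondrial peaks passed the exact permutation test of F over 280 partitions. By this exact permutation test, passing peaks, which numbered 92, 83 and 66 at day 0, 45, 54 and 49 at day 4, and 68, 31 and 86 at day 8, gave p = 0.2. The same number of strongest passing peaks (3030) was then taken from each library. The mitochondrial ones averaged 15, 30 and 28.3 at days 0, 4 and 8 (exact permutation p = 0.164). Day 0 then had the lowest mean in place of the highest. For day 4 replicate 1, 3030 was its full passing list, so its 45 mitochondrial peaks all stayed, beside 17 and 28 in replicates 2 and 3. Day 0 lists were shortened to 3030 from 12695 to 15508 passing peaks over all chromosomes. The part of list length in the changed order of days was not tested. Without that cut, the passing peak counts of day 8 spanned those of day 4 and most of day 0. Clusters numbered 176.0 ± 16.6, 133.0 ± 14.2 and 151.0 ± 41 (SD, n = 3; exact permutation p = 0.254, and 0.0393 without day 8 replicate 2). Covered mitochondrial nt were 3101.3 ± 172.0, 3143.3 ± 119.0 and 3150.0 ± 456.0 (exact permutation p = 0.971). Over this family of 11 tests no adjusted p was below 0.314. Pairs of days, with 3 libraries each, cannot go below an exact two-sided p of 0.1.

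The mitochondrial share of all clusters was 0.120 ± 0.0405% at day 0, 0.176 ± 0.0274% at day 4 and 0.260 ± 0.082% at day 8 (exact permutation p = 0.0607, adjusted 0.314). This share depends on the length of the list, and all clusters averaged 156659.7, 77624.7 and 58863.0 per library at these days. It passed the unadjusted threshold without day 8 replicate 2 (exact permutation p = 0.00714) and with touching clusters merged (0.0341%, 0.0708% and 0.0901% of footprints; exact permutation p = 0.00714). The mitochondrial share of passing peaks was 0.584 ± 0.0748%, 1.13 ± 0.403% and 0.897 ± 0.156% (exact permutation p = 0.0679, adjusted 0.314), and p was 0.00357 without day 4 replicate 2. The rRNAs took 12.7 ± 1.66%, 17.2 ± 2.42% and 18.9 ± 4.45% of the covered nt at days 0, 4 and 8 (exact permutation p = 0.0857, and 0.0286 without day 8 replicate 2). The tRNA share was 12.8 ± 0.198%, 11.9 ± 1.11% and 11.8 ± 0.181% (p = 0.232 by the exact test, and 0.0143 without day 4 replicate 3). The mRNA share was 74.5 ± 1.47%, 70.9 ± 2.61% and 69.3 ± 4.27% (p = 0.168 by the exact test, and 0.05 without day 8 replicate 2). How much of each transcript was covered ranged by class: 20.5 ± 6.07% of the rRNA length, 25.3 ± 2.5% of the tRNA length and 19.6 ± 1.23% of the mRNA length (SD, n = 9 libraries).

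The merged lists of reproducible peaks held 87 mitochondrial peaks of 7778 at day 0 (1.12%, Wilson 95% interval 0.908% to 1.38%), 50 of 947 at day 4 (5.28%, 4.03% to 6.89%) and 70 of 1576 at day 8 (4.44%, 3.53% to 5.57%). These intervals cover counting error only and treat touching peaks as independent, which they are not. Each day has 1 list, so the days were not tested. Touching peaks merged, the mitochondrial peaks were 31, 23 and 24 footprints, or 0.468%, 3.01% and 1.89% of all footprints. The Wilson 95% intervals of these shares were 0.33% to 0.664%, 2.01% to 4.47% and 1.27% to 2.79%. A −log10 p at the cap of 400 was given to 86.2%, 74.0% and 58.6% of the mitochondrial peaks and to 4.26%, 2.12% and 3.39% of the others. Their median log2 fold was 3.86, 3.83 and 3.89, against 4.59, 5.15 and 5.02 for the others.

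Of the 72 regions, 21, 19 and 23 held a reproducible peak at days 0, 4 and 8, and 17 did at all 3 days. These 17 included all 12 regions that passed in 9 libraries. The 4 reproducible mitochondrial peaks of highest fold at day 0 lay in ND5, led by chrM:13663-13667 (log2 fold 6.16). Day 4 was led by chrM:7679-7708 in COX2 (6.07) and chrM:7709-7749 beside it (5.91), then chrM:13681-13684 (5.77) and chrM:13663-13667 (5.66) in ND5. Day 8 was led by chrM:7738-7749 in COX2 (6.12), chrM:7679-7708 (5.95) and chrM:7709-7737 (5.94), then chrM:13679-13684 in ND5 (5.81). The highest ranked 1017, 193 and 251 by fold within the list of its day. On the rRNAs, 1 region held a reproducible peak at day 4 (RNR2-2) and 1 at day 8 (RNR1-3).

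Near the thresholds, a cluster in ND2 at chrM:4712-4753 (day 4 replicate 1, log2 fold 2.005) and one in COX1 at chrM:6577-6583 (day 0 replicate 1, 2.008) were just inside. One in TRNF at chrM:617-620 (day 0 replicate 1, 1.996) and one in COX1 at chrM:6519-6541 (day 8 replicate 3, 1.994) were just outside. Of the 1381 mitochondrial clusters in library lists, 574 passed, 803 were below 4-fold and 4 reached 4-fold without the p-value.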

How the data were processed

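The file headers give hg19 as the build and call the peaks normalized to input, and cutadapt, STAR and SAMtools are named without versions in the submitters' processing notes; the peak caller is not given in the sources used here. The deposited lists give for each peak the authors' log2 fold of IP over input and −log10 p, capped at 400, as each list shows. A deposited merged list per day holds reproducible peaks. Folds of single peaks describe and rank peaks within a list and are not tested between days; the within-library difference of median folds is. The inputs were not analysed here.

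Mitochondrial rows were taken from each list, merged by strand into regions (overlapping or touching) and assigned to the 37 mitochondrial genes of a RefSeq table (GRCh38.p14), whose coordinates are not printed; strands of these genes were added from general knowledge. No mitochondrial sequence was used here, so none is printed and the planned motif search was not run. Days were compared by exact permutation of F over 1680 arrangements (280 partitions), contrasts within libraries by exact sign flips over 512 patterns, with Benjamini-Hochberg adjustment, and p at or below 0.05 passed. The tests were tested on simulated data. Alternatives were an 8-fold threshold, −log10 p of at least 5, merged footprints, clusters of at least 20 nt, equal numbers of strongest peaks, a replicate block and leaving out each library.

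The text names, by rule, the 4 reproducible mitochondrial peaks of highest fold per day, regions passing in the most libraries, the 3 highest and 3 lowest clusters per day among regions present in 9 libraries, the rRNAs, transcripts passing in at least 3 libraries and clusters beside the thresholds. The rule took up to 8 of the regions passing in most libraries; all 12 are named. The members and lists were chosen with earlier results of these data known. Python 3.11.15, numpy 2.4.6, pandas 2.3.3, statsmodels 0.14.6 and matplotlib 3.10.9 were used.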

Additional observations from a re-analysis of the deposited data

Results flagged for a closer look

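The excess of the mitochondrial passing share over that of the other chromosomes differed between days. It was 36.1 ± 3.03 percentage points at day 0, 30.6 ± 2.87 at day 4 and 27.5 ± 3.74 at day 8 (SD, n = 3), with p = 0.05 by the exact permutation test of F over 280 partitions. This is at the threshold itself, and adjusted over the 5 within-library contrasts compared between days it was 0.227. The other 4 contrasts gave an exact p of 0.107 to 0.936. Groups of 3 libraries were too small to test for single outlying libraries.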

How the results depend on the processing

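The mitochondrial excess in passing share kept its direction and its call at 8-fold (21.1 percentage points) and −log10 p of at least 5 (35.5). It also did so with merged footprints (36.4) and clusters of at least 20 nt (41.3). It turned to -46.7 among clusters with −log10 p of at least 3. That alternative was chosen after seeing the data and itself selects partly on fold. The mRNA and tRNA excess over rRNA kept direction and call in every alternative run. The difference in median fold, not called over all clusters, was called with −log10 p of at least 3 (-2.2), and ranged from -0.438 to -0.247 without 1 library; it was called without day 0 replicate 1 or replicate 2 (exact permutation p = 0.0391 and 0.0469). The exact permutation p for the share of clusters was 0.00714 with merged footprints and 0.0107 with clusters of at least 20 nt. For the share of passing peaks it was 0.0429 at −log10 p of at least 5 and 0.025 with merged footprints. Without 1 library, p ranged from 0.0393 to 0.443 for clusters, 0.00714 to 0.139 for their share, 0.0607 to 0.4 for passing peaks, 0.00357 to 0.189 for their share, and 0.0286 to 0.286, 0.0143 to 0.439 and 0.05 to 0.368 for the rRNA, tRNA and mRNA shares of covered nt. The cause of these changes was not tested. Regions passing in 9 of 9 libraries were 7 at 8-fold, and 12 to 15 when 1 library was left out. Reproducible peaks merged into footprints were 31, 23 and 24. Same-numbered libraries did not deviate together (correlations of -0.42 to 0.088, 0 of 9 above 0.1), so the numbers were not taken as pairs. With a replicate block the exact p was 0.444 for clusters, 0.139 for their share, 0.278 for passing peaks, 0.0833 for their share, 0.75 for the plus-strand share, 0.944 for covered nt, and 0.167, 0.333 and 0.25 for the rRNA, tRNA and mRNA shares, and no call changed. Depth is unknown and the lists hold only clusters above input, so a region without a cluster is not shown to lack binding.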
